A study of Mus musculus with 5 samples.

Results

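Dendritic cells were the 124 cell barcodes, of 38337 with at most 10% mitochondrial UMIs (unique molecular identifiers, each marking 1 captured RNA molecule), that carried dendritic cell transcripts and few or none of other lineages. A member had at least 1 UMI over Flt3, Xcr1, Clec9a and Zbtb46, at least 10 over the MHC class II genes H2-Aa, H2-Ab1 and Cd74, and at most 1 over the macrophage complement genes C1qa, C1qb and C1qc. It also had no UMI of the B cell genes Cd79a and Ms4a1 or of the vascular and stromal genes Cdh5, Pecam1 and Pdgfra, and at most 1 UMI over Cd3d, Cd3e and Cd3g. Members with a UMI of Xcr1 or Clec9a were read as type 1 conventional dendritic cells (cDC1). These genes chose the cells, so their values are given as a description, without a test.

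The hearts came from mice that model myocarditis under immune checkpoint blockade. Control mice were Ctla4+/+Pdcd1-/- and disease mice were Ctla4+/-Pdcd1-/-, so that every mouse in both groups lacked Pdcd1 (the gene of PD-1), the groups differed in 1 copy of Ctla4, and no wild-type heart was analysed here. Pooled hearts of 4 control and 10 disease mice were digested with enzymes, nucleated live cells (DRAQ5+DAPI-) were sorted, and 2 control libraries (replicates 1 and 2) and 3 disease libraries (replicates 3, 4 and 5) were made with a 10x Genomics 5-prime kit. In the labels' genotype and sort fields 3 libraries carry another Pdcd number and 4 another DRAQ number, while the protocol and the design text give Pdcd1 and DRAQ5 throughout, which is followed here. Age, the mice behind each library and the day of preparation are not given in the sources used here, so p-values measure the spread between these libraries, and a difference in handling cannot be told apart from genotype.

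Dendritic cells take up antigen in tissue, present it on MHC molecules and, after maturation, travel to lymph nodes on the receptor CCR7 to prime T cells. The cDC1 subset, which depends on IRF8 and BATF3, is known for presenting antigen from dead cells to CD8+ T cells, and the cDC2 subset for priming CD4+ T cells. CTLA-4 on T cells binds the ligands CD80 and CD86 on dendritic cells, and PD-1 binds PD-L1 and PD-L2, which dendritic cells also display.

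Control replicates 1 and 2 held 25 and 5 dendritic cells, and disease replicates 3, 4 and 5 held 13, 53 and 28. They were deeply sampled, with median depths of 15470 and 13380 UMIs in control and of 15263, 11680 and 15811 in disease, against medians of 3367 to 4666 over all cells. Summed over cells, the class had 65504 UMIs in control replicate 2, the thinnest library, and 187843 to 651105 in the others. None of the 124 was among the 1199 doublets that Scrublet called. Between 86 and 161 barcodes recurred in each pair of libraries, 7 dendritic cell barcodes occurred in another library too, and none was a dendritic cell in both.

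The genes of the rule were detected as follows, which the rule itself partly fixed. Cd74, the MHC class II invariant chain, was present in all 124 cells, Clec9a (a receptor for dead cells) in 88, Xcr1 (a chemokine receptor) in 82, Flt3 (the growth factor receptor of the lineage) in 75 and the transcription factor Zbtb46 in 34. For comparison, Flt3 was found in at most 0.305% of the cells of a macrophage gate (at least 5 C1q UMIs; 384 to 1129 cells a library, median 5131 to 6911 UMIs). The label was checked on genes that the rule did not use: the MHC class II chain H2-Eb1 was present in 123 cells, Wdfy4, needed for cross-presentation by cDC1, in 99, and Irf8 in 91. The leading genes over all other cells of the same library, beside the rule's own, were Cldn1, Ccl22, Tnni2, Hepacam2, Cd209a and Wdfy4, with mean log2 differences of 5.97, 5.92, 5.59, 5.34, 5.18 and 5.04 over the 5 libraries.

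Markers of other lineages were measured in the same cells. Over 9 T cell genes beside those of the rule, the summed level was 4.73 and 30.5 CPM in control and 0, 24.6 and 6.69 CPM in disease (CPM, used throughout, are UMIs per 1000000 UMIs of the named cell class in that library), and 5 of 7 NK cell genes were at 0. Of the B cell genes, Pax5 was at 0 in every library, while Ighm was found in 70 of the 124 cells. The 12 macrophage markers summed to 303 to 564 CPM and the 6 fibroblast markers, chiefly Gsn, to 415 to 662 CPM over the 5 libraries. The 13 monocyte genes summed to 1276 and 2656 CPM in control and to 1352, 4299 and 2566 CPM in disease, against 16561 to 20000 CPM in the macrophage gate, and they are taken up below beside the genes they move with.

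At the edges of the rule, 22 members had a single UMI of the 4 dendritic cell markers and 102 had more. Only 9 members had 10 to 49 MHC class II UMIs and 113 had 100 or more, while 5 cells just outside had 5 to 9 and 90 had fewer. The C1q limit left out most: 494 cells failed it alone, of which 430 had a UMI of Xcr1 or Clec9a. Among cells meeting every other criterion, Flt3 was present in 75 of 124 members, in 17 of 36 cells with 2 to 5 C1q UMIs, in 0 of 39 with 6 to 49 and in 7 of 419 with 50 or more. The macrophage receptors Adgre1 or Fcgr1 ran the other way, being present in 33 of 124 members, then in 13 of 36, 27 of 39 and 412 of 419.

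**Figure D1:**
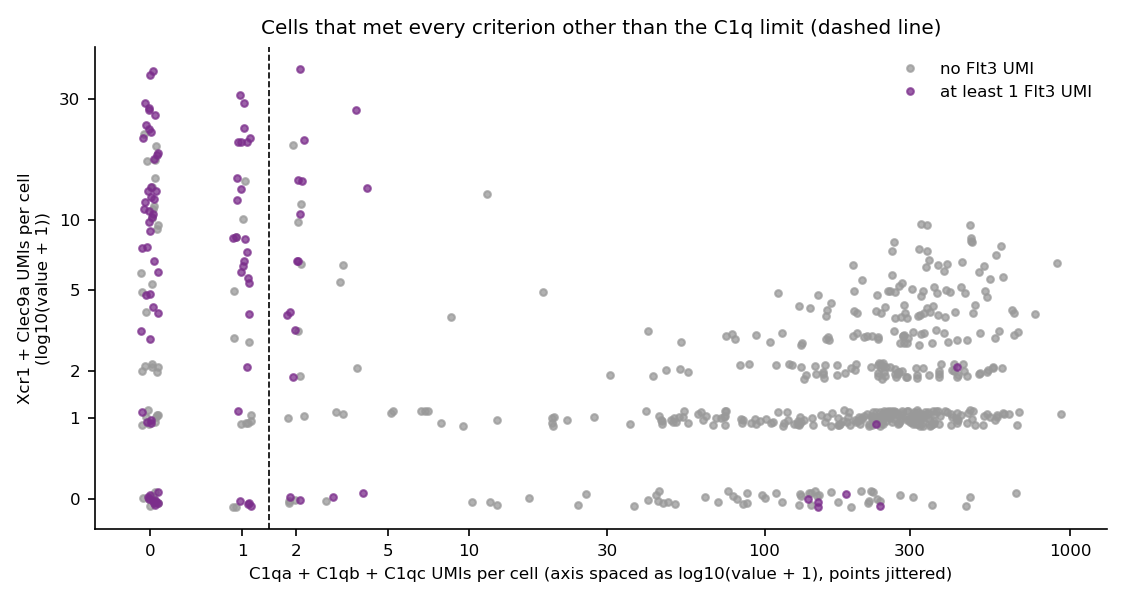
Each point is 1 cell that met every criterion other than the C1q limit, with its C1qa, C1qb and C1qc UMIs on the x axis and its Xcr1 and Clec9a UMIs on the y axis, both spaced as log10(value + 1); the dashed line is the limit. Flt3-positive cells (purple) lie mostly at 5 C1q UMIs or fewer, and 7 of the 419 cells at 50 or more had a Flt3 UMI.

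Xcr1 or Clec9a UMIs in C1q-high cells were not spread evenly over the libraries. They were found in 4.99 and 0.521% of the macrophage gate in control replicates 1 and 2 and in 1.56, 25.5 and 10.0% in disease replicates 3, 4 and 5. Disease replicates 4 and 5 were thus highest, and disease replicate 3 lay between the control libraries. With each cell thinned to 1000 UMIs the shares were 1.04 and 0.265% against 0, 5.97 and 0.709%. T cells, which should lack both genes, had them in 0.484 and 0% of control and 1.83, 0.867 and 0.433% of disease cells at median depths of 3660 to 4750 UMIs.

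The first comparison asks whether the disease hearts held more dendritic cells. Dendritic cells were 0.270% (95% Wilson interval 0.183 to 0.398) and 0.0894% (0.0382 to 0.209) of all cells in the control libraries and 0.223% (0.131 to 0.382), 0.532% (0.407 to 0.695) and 0.364% (0.252 to 0.526) in the disease libraries; these intervals cover counting error only. Disease replicate 3 lay between the control libraries, so the groups overlapped. The means were 0.180% ± 0.127 (SD, n = 2) and 0.373% ± 0.154 (SD, n = 3), and a two-sided exact permutation test gave p = 0.3 (adjusted p = 0.4 over 5 share tests), where 5 libraries allow no value under 0.1. The groups did not overlap without control replicate 1 (0.0894% against a disease mean of 0.373%) or without disease replicate 3 (means of 0.180 and 0.448%), nor under 3 changes to the rule or depth. With at most 5% mitochondrial UMIs the shares were 0.383 and 0.123% against 0.475, 0.613 and 0.618% (difference 0.316 percentage points, exact permutation p = 0.1, adjusted p = 0.4). With at least 2 UMIs over the 4 markers the difference was 0.172 points, and with the rule applied to cells thinned to 1000 UMIs it was 0.216 points (exact permutation p = 0.2 for each).

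As a share of leukocytes (cells with a UMI of Ptprc, the gene of CD45) dendritic cells made up 1.06 and 0.508% in control and 1.12, 1.02 and 1.62% in disease. Disease replicate 4, with the most dendritic cells per library, stood below control replicate 1 on this scale, since 5074 of its 9964 cells had a Ptprc UMI. The difference of 0.474 percentage points gave p = 0.3 in the exact permutation test. The groups did not overlap, with p = 0.1 in that exact test, in 2 settings. These were a C1q limit of 4, chosen after seeing the data (1.27 and 0.508% against 1.34, 1.40 and 1.92%, adjusted p = 0.4), and the rule applied after thinning to 1000 UMIs (0.479 and 0% against 0.831, 0.655 and 0.539%, adjusted p = 0.5). They also did not overlap without control replicate 1 or without disease replicate 4 (differences of 0.748 and 0.590 points).

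Most dendritic cells were cDC1 in all libraries: 20 of 25 and 3 of 5 in control (80.0 and 60.0%), and 10 of 13, 46 of 53 and 22 of 28 in disease (76.9, 86.8 and 78.6%). The groups overlapped, with a difference of 10.8 percentage points, given without a test since genes of the rule define the subset. Both Xcr1 and Clec9a were detected in 69 of the 101 cDC1, and Flt3 in 61. Genes outside the rule separated the subset from the 23 other dendritic cells in the pooled cells, as a description: the adhesion gene Cadm1 was present in 72 of 101 against 3 of 23, the lipid amidase gene Naaa in 88 against 6, the integrin Itgae (CD103) in 62 against 1, and the endosomal sensors Tlr3 and Tlr11 in 43 against 1 and in 33 against 1. Median depths were 15359 and 11558 UMIs. The lysosomal thioesterase Ppt1 led the cDC1 by fold after Xcr1 and Clec9a, with a mean log2 difference of 5.92 over the libraries.

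The 23 others were a mixed remainder. Fabp5, a lipid chaperone, led them with a mean log2 difference of 6.07 over cDC1, followed by Gyg, Arl5c and the cytokine receptor Il21r (2.89). They held 12 of the 39 mature migratory cells described next, and 7 of the 8 cells with Fscn1. In 9 members Zbtb46 was the sole marker detected.

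Mature migratory cells, which had at least 3 UMIs over Ccr7, Fscn1, Ccl22, Il4i1 and Cacnb3, numbered 6 of 25 and 1 of 5 in control, then 5 of 13, 14 of 53 and 13 of 28 in disease. The shares were 24.0 and 20% against 38.5, 26.4 and 46.4%, so that every disease library lay above both control libraries, disease replicate 4 by little. The difference was 15.1 percentage points with p = 0.2 in the exact permutation test (adjusted p = 0.4). With all members thinned to 1000 UMIs, to even out depth, the shares were 4.00 and 0% against 23.1, 5.66 and 10.7%. The groups overlapped under 3 other settings. With the rule itself applied after thinning, control replicate 2 had no dendritic cell, and the shares were 9.09% in control replicate 1 and 27.3, 4.35 and 0% in disease, a difference of 1.45 points. With at least 2 UMIs over the 4 markers they were 20 and 25% against 38.5, 24.4 and 50%, and with at most 5% mitochondrial UMIs disease replicate 4 equalled control replicate 1. In the 25 and 5 control cells the Wilson intervals ran from 11.5 to 43.4% and from 3.62 to 62.4%.

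Of the 39 mature cells 27 were cDC1 and 12 had no UMI of Xcr1 or Clec9a, against 101 and 23 of all 124 members. Il12b, the p40 subunit of IL-12 and IL-23, was present in 13 of 39 mature cells against 4 of 85 others, the costimulatory receptor gene Cd40 in 31 against 27, Cd274 (PD-L1) in 27 against 31 and Pdcd1lg2 (PD-L2) in 10 against 7. The chemokine gene Ccl17 was present in 17 of 39 against 1 of 85. Cells of the mature group were deeper, with a median of 16618 UMIs against 12976, and these pooled counts carry no test.

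Cycling cells, called from 2 or more UMIs of the division genes Mki67, Top2a, Birc5, Ccnb2 and Cdk1, made up 4 of 25 and 0 of 5 cells in control (16.0% and 0%, where 5 cells allow up to 60.0%) and 1 of 13, 12 of 53 and 10 of 28 in disease (7.69, 22.6 and 35.7%). The groups overlapped, with a difference of 14.0 percentage points and p = 0.4 in the exact permutation test. Of the 27 cycling cells 22 were cDC1, against 101 of all 124 members, and 12 were also in the mature group. Their median depth was 19024 UMIs against 13557, and after thinning to 1000 UMIs the difference was 1.08 percentage points. None of the 16 cell cycle genes tested was called, 12 had a positive and 4 a negative log2 fold change, and the list's median was 0.41.

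The cDC2-marker group (no Xcr1 or Clec9a, not mature, at least 2 UMIs over Cd209a, Clec10a, Mgl2 and Sirpa) held 3 of 25 and 1 of 5 control cells and 0 of 13, 2 of 53 and 2 of 28 disease cells. The shares of 12.0 and 20% lay above those of 0, 3.77 and 7.14%, a difference of -12.4 percentage points (disease minus control), given without a test because the absence of 2 genes of the rule defines the group. These are 8 cells in all. Plasmacytoid markers gave 2 cells, both in control replicate 2 and both by Cox6a2 alone, a muscle gene that other cells of the hearts carried at 42.5 to 62.4 CPM.

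**Figure D2:**
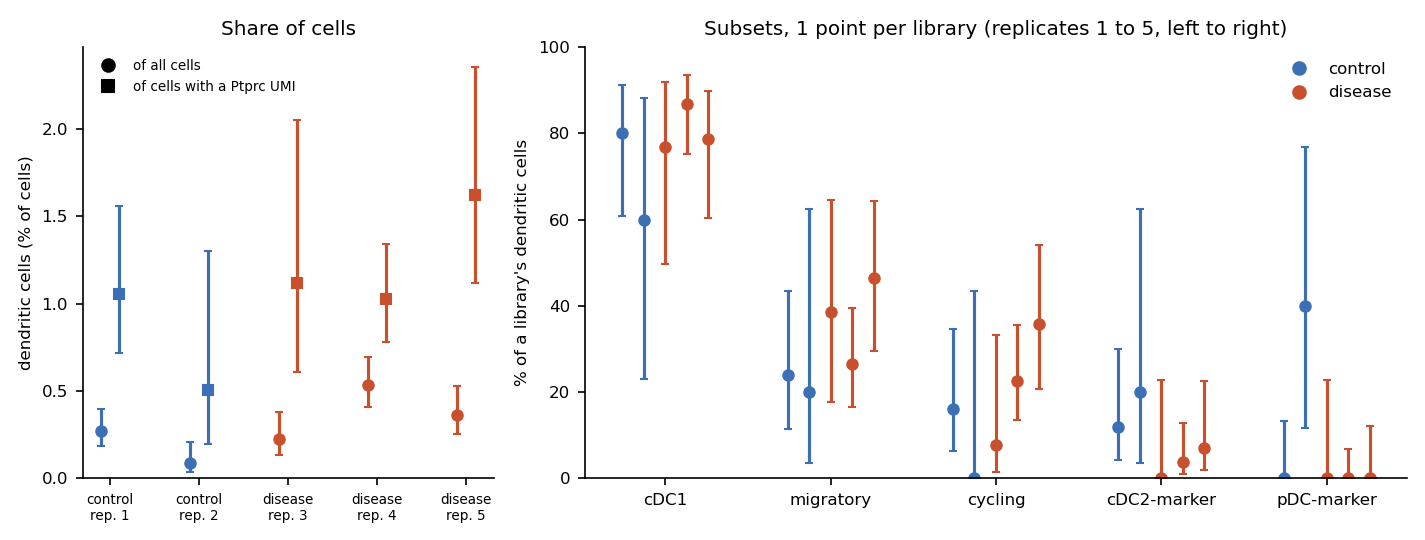
Left, dendritic cells as a percentage of all cells (circles) and of cells with a Ptprc UMI (squares) in each library; right, the subsets as a percentage of a library's dendritic cells, control in blue and disease in red. Bars are 95% Wilson intervals for counting error; the mature migratory share is 20 to 24.0% in control and 26.4 to 46.4% in disease.

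Gene expression was compared between genotypes on the UMIs summed over each library's dendritic cells (edgeR's quasi-likelihood test, Benjamini-Hochberg adjustment over 4283 genes). Ccr7, the lymph node homing receptor, was the 1 gene that rose, and 109 genes fell, 0.0233 and 2.54% of the genes tested (2.57% together). At an unadjusted p under 0.05, 140 genes were higher (3.27%) and 474 lower (11.1%). Libraries of the 2 groups did not overlap for 34.7% of all genes tested, in the higher direction for 16.7%. The median log2 fold change of all genes was 0.06. With every gene of at least 1 count let in, 45 of 12424 genes were higher and 171 lower, and the median moved to 0.36. The counts depended on single libraries: without control replicate 1, 3 genes were called, without control replicate 2, 38, and without disease replicates 4 or 5, 27 and 28.

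The level of Ccr7 was 137 CPM in control replicate 1 and 15.3 CPM in control replicate 2, and 1161, 670 and 519 CPM in disease (replicates 3, 4 and 5 in this order, here and below). It was found in 5 of 25 and 1 of 5 control cells, and in 6 of 13, 12 of 53 and 13 of 28 disease cells. All disease libraries lay above both control libraries. The edgeR fit gave a log2 fold change of 3.07 with SE 0.64 and an adjusted p of 0.0324. No setting that left out 1 library kept the call, with adjusted p-values from 0.0671 to 0.144, although the log2 fold change was 2.51 to 5.91. The call was also lost with 5 cells drawn per library (adjusted p = 0.154) and when cells with up to 4 C1q UMIs were let in, a setting chosen after seeing the data (log2 fold change 1.37, adjusted p = 0.506). B cells of the same hearts carried Ccr7 at 894 to 1254 CPM, T cells at 66.4 to 389 CPM and the macrophage gate at no more than 15.8 CPM; in the dendritic cells Cd79b, a B cell gene outside the rule, had 2 UMIs in all. Ighm, another B cell gene, was higher in each disease library, at 49.6 and 45.8 against 106, 114 and 73.6 CPM, and its part in the Ccr7 result was not tested.

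The list of 22 migratory and mature dendritic cell genes was measured for 17. Ccr7 was called, 15 of 17 had a positive log2 fold change, 10 had all disease libraries above both control libraries and the median log2 fold change was 1.37, against 53.6% positive, 16.7% separated upwards and a median of 0.06 over all genes tested. These counts are a description and no support, because Fscn1 and Cacnb3, with no control UMI, and Il4i1, Anxa3 and Zmynd15, with 1 to 3, passed the limit on low counts through the disease libraries, which fixed their sign. Expression of Fscn1, which bundles actin in the long processes of mature dendritic cells, was 0 in both control libraries and 1107, 63.0 and 194 CPM in disease, in 0 of 30 control cells and in 3, 3 and 2 disease cells. Against a limit of 3 UMIs over the control group it was at least 42.5-fold higher in disease, and at least 19.0-fold without disease replicate 3. The RNA came from few cells: the highest cell held 48.1, 53.7 and 98.9% of the Fscn1 UMIs in the 3 disease libraries. Endothelial cells of these hearts also carried Fscn1, at 109 to 266 CPM.

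Other genes of the list had the same order without passing the test. Tbc1d4, a Rab GTPase-activating protein, stood at 40.2 and 0 CPM in control and 287, 140 and 149 CPM in disease, a log2 difference of 2.66 (SE 0.69) with an edgeR adjusted p of 0.067. With 0 CPM in control replicate 2, Tbc1d4 needed a disease library to pass the limit on low counts, as did Ccl5, Pdcd1lg2, Ly6c2 and Cd63 below. Il4i1, a secreted amino acid oxidase, was at 0 and 15.3 CPM against 186, 33.8 and 44.6 CPM. Its control libraries held 1 UMI and its disease libraries 77, a ratio of 29.2 with an exact counting interval of 5.09 to 1169, and the ratio was 18.7 without disease replicate 3. The calcium channel subunit Cacnb3 was 0 in both control libraries and 31.9, 19.97 and 37.9 CPM in disease, at least 4.55-fold higher.

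Anxa3 and Zmynd15 rested on 2 and 3 control UMIs and had ratios of 9.87 (2.60 to 83.6) and 10.8 (3.56 to 53.2), the latter 5.18 without disease replicate 3 and 18.4 without disease replicate 4. The protease inhibitor Serpinb6b was at 279 and 15.3 CPM against 788, 327 and 600 CPM, again without overlap (log2 fold change 1.74, edgeR adjusted p = 0.278). Not every gene of the list had this order. The CCR4 ligands Ccl22 (99.3 and 275 CPM against 362, 108 and 194) and Ccl17 (94.6 and 15.3 against 170, 32.3 and 272) overlapped between groups. The non-canonical NF-kappaB subunit Relb was at 42.5 and 122 CPM in control and 31.9, 15.4 and 22.3 CPM in disease, lower in each disease library, and the maturation marker Cd83 was at 962 and 1328 against 990, 252 and 446 CPM.

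Promoters of 4 genes whose levels separated the groups are shown, since mature dendritic cell genes are textbook targets of NF-kappaB. Each run is the 250 bases before the start of the RefSeq gene (build GRCm38.p6), and capitals mark an NF-kappaB-type motif (GGGA, any 4 bases, then CC) on either strand. The regions are chr5:142960105-142960354 on the plus strand for Fscn1, chr7:44836038-44836287 on the plus strand for Il4i1, chr14:101609192-101609441 on the minus strand for Tbc1d4 and chr11:44399813-44400062 on the plus strand for Il12b.
Fscn1: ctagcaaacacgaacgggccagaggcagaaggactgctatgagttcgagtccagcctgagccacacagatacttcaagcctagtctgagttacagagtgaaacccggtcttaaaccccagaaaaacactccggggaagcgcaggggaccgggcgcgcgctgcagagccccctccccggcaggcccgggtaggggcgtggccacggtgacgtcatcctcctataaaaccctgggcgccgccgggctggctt
Il4i1: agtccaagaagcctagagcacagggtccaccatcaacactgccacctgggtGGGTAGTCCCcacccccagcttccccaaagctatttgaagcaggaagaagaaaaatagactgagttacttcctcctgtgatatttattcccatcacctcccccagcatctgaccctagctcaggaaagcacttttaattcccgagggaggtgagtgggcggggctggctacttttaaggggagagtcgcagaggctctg
Tbc1d4: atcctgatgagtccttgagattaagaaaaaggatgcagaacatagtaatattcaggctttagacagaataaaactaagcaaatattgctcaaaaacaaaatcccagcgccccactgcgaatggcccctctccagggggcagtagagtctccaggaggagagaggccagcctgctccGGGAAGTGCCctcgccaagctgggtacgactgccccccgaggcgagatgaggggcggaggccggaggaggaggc
Il12b: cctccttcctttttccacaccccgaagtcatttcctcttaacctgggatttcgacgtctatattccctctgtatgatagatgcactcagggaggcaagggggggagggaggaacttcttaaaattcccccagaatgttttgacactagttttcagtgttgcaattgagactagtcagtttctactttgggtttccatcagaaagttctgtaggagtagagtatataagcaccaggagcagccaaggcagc
Il4i1 and Tbc1d4 held 1 match each, 199 and 74 bases before the start, and the windows of Fscn1 and Il12b held none. The motif was present in 17.6% of 32851 promoter entries of this length. In the mature list it was in at least 1 entry of 7 of the 16 genes with an entry (Ccl22, Il4i1, Cacnb3, Nudt17, Tmem123, Birc3 and Tbc1d4), as a description of these letters alone. Those 16 genes have 19 entries, so a count by gene and a share of entries cannot be compared directly.

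Among costimulatory and inhibitory molecules for T cells, none of 14 genes tested was called, with 7 positive and 7 negative log2 fold changes and a median of 0.00. Cd86 was even, at 336 and 473 CPM in control and 362, 430 and 426 CPM in disease. Cd80 was at 61.5 and 305 CPM against 74.5, 84.5 and 60.2, with control replicate 2 standing apart. Cd40, through which helper T cells license dendritic cells, was at 61.5 and 61.1 CPM against 208, 141 and 91.4, and each disease library was higher (edgeR log2 fold change 1.30, SE 0.50, adjusted p = 0.243).

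The PD-1 ligands were detected in both genotypes. Cd274 was at 137 and 0 CPM in control and 245, 152 and 100 CPM in disease, and the groups overlapped. Pdcd1lg2 was at 16.5 and 0 CPM against 69.2, 41.5 and 20.1 CPM without overlap, though by 20.1 to 16.5 CPM at the nearest (edgeR log2 fold change 1.58, SE 0.81, adjusted p = 0.42). Of the targeted genes, Ctla4 had UMIs in 3, 0, 0, 2 and 5 dendritic cells of replicates 1 to 5, and Pdcd1 in 0, 0, 0, 1 and 1. A UMI outside the deleted part of Pdcd1 says nothing of the deletion, and this read-out does not check the labels.

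Cytokine transcripts were carried by few cells. Il12b was at 23.6 and 45.8 CPM in control and 1842, 554 and 78.0 CPM in disease, in 2 and 1 control cells and 2, 8 and 4 disease cells. Every disease library was higher, but a single cell held 82.1, 53.5 and 71.4% of the UMIs there (edgeR log2 fold change 4.92, SE 1.25, adjusted p = 0.0632). Il1b was at 695 and 2580 CPM against 937, 898 and 551 CPM and the groups overlapped. Il12a, the partner of Il12b in IL-12, was too low to test, as were 9 other genes of the 16 in the cytokine list, and none of the 6 tested was called.

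Chemokine and receptor genes gave 16 tests, of which Ccr7 was called higher, against 0.0233% of all genes tested. Their median was 0.41 against 0.06, and 4 of the 16 had all disease libraries above both control libraries, against 16.7%. Ccl5, a chemokine that attracts T cells, was at 37.8 and 0 CPM in control and 532, 160 and 172 CPM in disease, in 11 and 0 against 5, 37 and 6 cells (edgeR log2 fold change 3.34, SE 0.82, adjusted p = 0.0588). All disease libraries were higher. Other cells of the same libraries carried Ccl5 at 1595 and 151 CPM in control and 381, 6937 and 2171 CPM in disease, and the part of that RNA in the dendritic cell values was not tested. The CXCR3 ligand Cxcl9 was at 482 and 198 CPM against 154, 937 and 604 CPM, with disease replicate 3 the lowest of all.

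**Figure D3:**
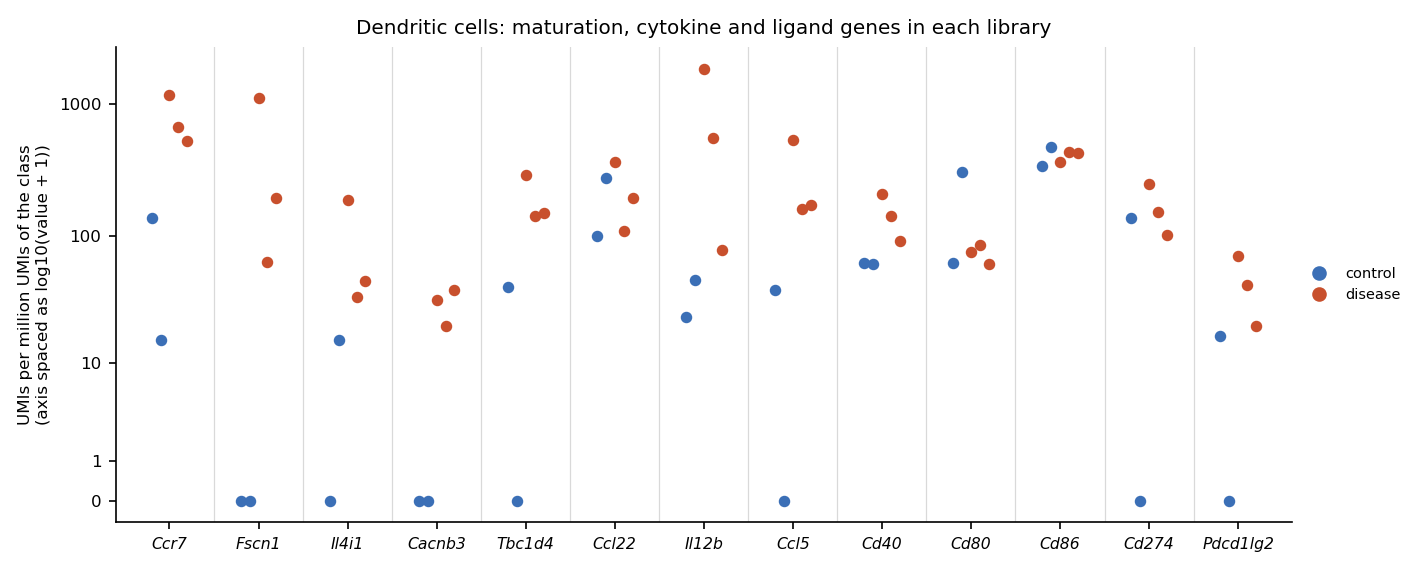
Level of 13 maturation, cytokine and ligand genes in the dendritic cells of each library, in CPM on an axis spaced as log10(value + 1); blue points are the 2 control and red points the 3 disease libraries. For Ccr7, Fscn1, Il4i1, Cacnb3, Tbc1d4, Il12b, Ccl5, Cd40 and Pdcd1lg2 all red points lie above the blue ones, while Ccl22, Cd80, Cd86 and Cd274 overlap.

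No MHC class II pathway gene outside the rule passed the test. H2-Eb1 was at 14010 and 16274 CPM in control and 12718, 14631 and 15448 CPM in disease. Of the 9 genes tested 8 had a positive log2 fold change and 4 had all disease libraries above both control libraries, against 53.6 and 16.7% of all genes tested, and the median was 0.31. Ciita, the master transactivator of these genes, was at 30.7 and 30.5 CPM against 58.6, 64.5 and 46.8, higher in each disease library without passing the test.

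In the MHC class I and cross-presentation list 2 of 18 genes fell, against 2.54% of all genes tested, and 16 were not called, with a median of 0.15. H2-D1, a classical class I heavy chain, was at 2404 and 2595 CPM in control and 468, 427 and 439 CPM in disease (edgeR log2 fold change -2.36, SE 0.27, adjusted p = 0.00172). Pdia3, which helps load peptide onto class I, was at 785 and 763 against 149, 187 and 147 CPM (-2.16, SE 0.31, edgeR adjusted p = 0.00599). Both genes also fell in the macrophage gate (edgeR adjusted p = 0.0101 and 0.00838), which had H2-D1 at 4116 and 2928 against 738, 992 and 703 CPM, and Pdia3 at 496 and 357 against 112, 121 and 127. The light chain B2m, at 2383 and 1420 against 2667, 3420 and 2722 CPM, and the peptide transporter subunits Tap1 and Tap2 were not called. H2-D1 and its relative H2-K1 are near-identical over long stretches, so their counts are uncertain.

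Of the 109 genes that fell, 3 are described in full. Pfn1, an actin monomer binder, was at 2645 and 2229 CPM in control and 128, 111 and 127 CPM in disease, an edgeR log2 fold change of -4.22 (SE 0.32, adjusted p = 0.000221) that was called in all 16 alternatives. Snrpf, a core protein of the spliceosome, was at 239 and 198 against 5.32, 1.54 and 6.69 CPM (-5.62), and Cox5a, a subunit of cytochrome c oxidase, at 378 and 290 against 10.6, 21.5 and 17.8 CPM (-4.16). All 3 also fell in the macrophage gate (edgeR adjusted p from 0.00175 to 0.00251), where Pfn1 was at 2258 and 1533 against 133, 133 and 159 CPM and Snrpf at 119 and 104 against 7.91, 2.88 and 5.24 CPM. In all remaining cells Pfn1 was at 1351 and 839 against 67.9, 87.5 and 82.1 CPM.

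The other named falls were H2afj (-5.30), Pgls (-4.94), Ndufb2 (-4.79), Mrps24 (-4.79), Crlf2 (-4.57), and Rnaset2a (-4.83) and Rnaset2b (-4.80), a near-identical pair whose separate counts are uncertain. Crlf2 encodes the receptor for thymic stromal lymphopoietin, Ndufb2 a subunit of respiratory complex I, Mrps24 a mitochondrial ribosomal protein and Pgls an enzyme of the pentose phosphate pathway. The level of Pfn1, Snrpf and Cox5a was low in every disease library in all 3 classes examined (dendritic cells, the macrophage gate and the remaining cells), and the genotype and the preparation of the libraries cannot be told apart as their source.

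The stress and dissociation list had 2 falls among 17 genes, Atf3 and Dusp1, against 2.54% of all genes tested. Its median was -0.42, and 7 of the 17 had all disease libraries below both control libraries, against 18.0% of all genes tested. Atf3, a stress-induced transcription factor, was at 461 and 443 CPM against 122, 86.0 and 100 (log2 fold change -2.05, edgeR adjusted p = 0.0167). Dusp1, a phosphatase of MAP kinases, was at 858 and 1038 against 245, 266 and 314 CPM (-1.65, edgeR adjusted p = 0.0185). Both fell in the macrophage gate too (edgeR adjusted p = 0.00296 and 0.0437), where Atf3 stood at 1957 and 2179 against 531, 340 and 403 CPM. Fos and Jun, immediate early genes of the same list, overlapped between genotypes.

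No subset gene outside the rule passed the test. None of 16 cDC1 genes outside the rule was called, and the median was 0.47. Of these 13 had a positive log2 fold change and 6 had all disease libraries above both control libraries, against 53.6 and 16.7% of all genes tested. Irf8 was at 1042 and 153 CPM in control and 618, 429 and 406 in disease, and Batf3 at 61.5 and 15.3 against 47.9, 16.9 and 6.69, both overlapping. Of 7 cDC2 genes none was called and 6 were negative, with a median of -0.92. Cd209a, a C-type lectin of cDC2, was at 220 and 1252 CPM against 117, 84.5 and 212, so that the groups were separated by 212 to 220 CPM at the nearest (log2 fold change -2.11, edgeR adjusted p = 0.107), and Clec10a was at 68.6 and 168 against 0, 38.4 and 24.5 CPM (-1.91, edgeR adjusted p = 0.185).

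None of 28 genes induced by interferon gamma was called. Of these 23 were positive and 5 had all disease libraries above both control libraries, against 53.6 and 16.7% of all genes tested, and the median was 0.70 against 0.06. Disease replicate 4 was the highest library for Ifi47 (111 and 76.3 CPM in control against 10.6, 347 and 42.4 in disease) and Gbp2 (151 and 0 against 149, 462 and 120). The 9 type I interferon genes had a median of -0.01, and the 12 sensors of microbial molecules one of 0.05, with no call in either. Of 25 genes of dendritic cell development outside the rule, 12 were positive and 13 negative (median -0.10).

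No monocyte gene passed the test. Ly6c2, an antigen of inflammatory monocytes, was at 37.8 and 0 CPM in control and 16.0, 319 and 234 CPM in disease, in 9, 0, 2, 27 and 11 cells of replicates 1 to 5, with disease replicate 3 between the control libraries (log2 fold change 2.75, edgeR adjusted p = 0.193). Of the 49 cells with Ly6c2, 43 were cDC1, against 101 of all 124 members. The 10 monocyte genes tested had a median of 1.93, a description only, since Chil3 and Hp, with no control UMI, and Csf1r, with 1, could be tested only through the disease libraries. Chil3, a monocyte and neutrophil product, had no UMI in replicates 1 to 3, 227 CPM in disease replicate 4 and 62.4 CPM in disease replicate 5, from 4 cells. Without the 35 cells that had at least 2 UMIs over Ly6c2, Chil3, Hp and F13a1, a setting chosen after seeing the data, 3 genes were higher, Ccr7 among them, and 64 were lower.

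**Figure D4:**
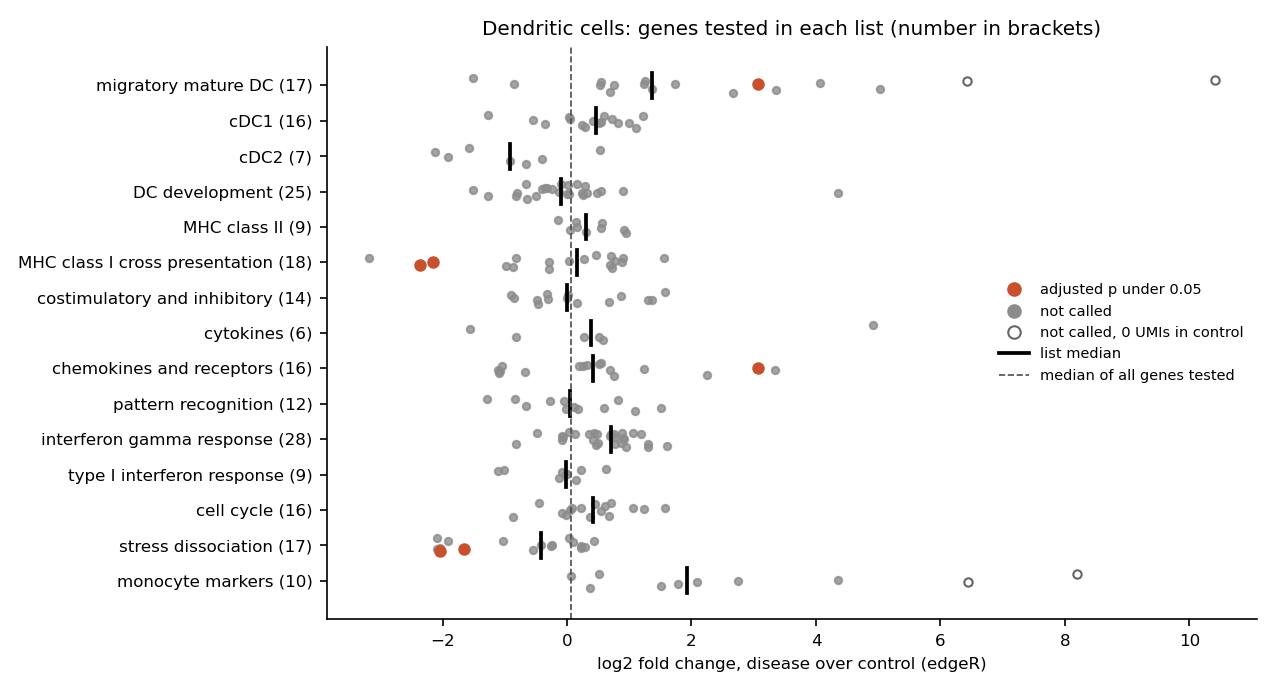
Log2 fold change (disease over control, edgeR) of each gene tested in the dendritic cells, grouped by list; red points have an adjusted p under 0.05, open circles are genes with no control UMI whose fitted value is no measure of size and whose sign the limit on low counts fixed, black bars are list medians and the dashed line is the median of all genes (0.06). The migratory and monocyte lists lie furthest to the right (medians 1.37 and 1.93) and the cDC2 list furthest to the left (-0.92).

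To ask which differences were larger in dendritic cells than in macrophages of the same libraries, the genotype effect in the macrophage gate was subtracted in a single edgeR model over both cell classes. In the macrophage gate alone, 757 of 10761 genes were called (7.03%), 32 higher (0.297%) and 725 lower (6.74%). Between the classes 34 of 9094 genes differed (0.374%), 11 with a higher (0.121%) and 23 with a lower effect (0.253%) in dendritic cells. The dendritic-to-macrophage ratios of the 2 groups did not overlap for 21 of the 34, against 21.6% of all genes tested. Among the 34 is Clec9a, a gene of the rule whose value is not read here, which leaves 11 higher and 22 lower. Of the 11, the 4 genes Fscn1, Il4i1, Csf1r and Anxa3 had 3 or fewer control UMIs in dendritic cells. Without control replicate 2, 6 genes were called, and without disease replicate 5, 19.

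Tbc1d4 was called with a higher effect in all 9 alternatives. Beside the dendritic cell levels given above, macrophages had it at 30.7 and 35.9 CPM in control and 30.1, 17.4 and 20.2 CPM in disease (log2 difference 3.11, edgeR adjusted p = 1.12e-06). Fscn1 and Il4i1 were called too, but they had 0 and 1 control UMIs in dendritic cells and at most 7.96 and 2.77 CPM in macrophages, so that a fall in dendritic cells could not have been seen and the calls are not read as support. Ccr7 was not called (2.15, edgeR adjusted p = 0.227), but its value turned on single libraries and cells. It was -0.43 without control replicate 1, 4.65 (edgeR adjusted p = 3.83e-07) without disease replicate 4 and 3.44 (edgeR adjusted p = 9.16e-05) without cells carrying monocyte markers.

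Ncoa7, a nuclear receptor coactivator, was at 89.8 and 15.3 CPM in control dendritic cells and 234, 172 and 125 CPM in disease, while macrophages had 51.6 and 59.1 against 32.4, 20.2 and 24.9 CPM (log2 difference 2.48, edgeR adjusted p = 3.47e-05). The tetraspanin gene Cd63 was at 11.8 and 0 against 389, 70.7 and 86.9 CPM in dendritic cells and at 469 and 563 against 561, 338 and 577 CPM in macrophages (3.88, edgeR adjusted p = 1.85e-07). Its low control level in dendritic cells left little room for a fall there. Disease dendritic cells were higher for both genes, but neither was called in the dendritic cell fit alone (Cd63 edgeR adjusted p = 0.0706). Macrophages were higher for neither. Ncoa7 was called lower there (log2 fold change -1.01, edgeR adjusted p = 0.0327), so part of its difference is a fall in macrophages. The thioredoxin-related gene Txndc17 was at 121 and 153 against 980, 319 and 386 CPM, next to 149 to 190 CPM in all macrophage samples (1.84, edgeR adjusted p = 0.0038).

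Csf1r, the receptor for macrophage colony-stimulating factor, had 1 UMI in control and 70 in disease dendritic cells, a ratio of 26.6 with an exact counting interval of 4.61 to 1064 (14.6 without disease replicate 4), at 2.36 and 0 against 26.6, 78.3 and 31.2 CPM. It was called, but with 1 control UMI a fall could not have been seen, and the call is not read as support. Macrophages carried 768 to 1006 CPM, and 13 of the 18 dendritic cells with a Csf1r UMI were cDC1, against 101 of all 124 members. The same limit holds for Anxa3, with 2 control UMIs. Glipr2 (3.07) and the ADP-ribose hydrolase Nudt9 (2.15) completed the named higher effects.

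Several genes with lower effects were highest in the macrophage gate of disease replicates 4 and 5, without being called there alone. Napsa, an aspartic protease, was even in dendritic cells, at 603 and 748 CPM in control and 405, 687 and 586 in disease, but was at 13.6 and 3.03 against 21.5, 90.3 and 38.0 CPM in macrophages (log2 difference -2.45, edgeR adjusted p = 6.18e-06). Klrb1b (-3.01) and H2-Oa (-1.86), which lowers class II peptide exchange, had the same form: H2-Oa was at 262 and 260 against 170, 277 and 218 CPM in dendritic cells and at 4.87 and 2.53 against 3.77, 32.9 and 9.96 CPM in macrophages. Napsa, Klrb1b and H2-Oa were among the genes that led dendritic cells over all other cells, and the same 2 disease libraries had the highest shares of Xcr1 or Clec9a in the macrophage gate, 25.5 and 10.0%. After thinning to 1000 UMIs, as given above, disease replicate 5 (0.709%) lay below control replicate 1 (1.04%). The part of those cells in these values was not tested.

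Ly6a (Sca-1), an interferon-induced surface antigen, was at 563 and 366 CPM in control dendritic cells and 16.0, 1054 and 439 CPM in disease, and at 209 and 22.2 against 49.7, 1792 and 860 CPM in macrophages (-3.22, edgeR adjusted p = 5.55e-13, called in all 9 alternatives). Cxcl9 differed too (-1.82, edgeR adjusted p = 0.00245), being at 358 and 11.1 against 101, 2286 and 799 CPM in macrophages. The dendritic-to-macrophage ratios of the groups overlapped for Cxcl9 and for Il1b. Il1b (-1.53), Cd209a (-2.21), Clec4b1 (-2.53), Slc15a3 (-2.30), the metallothionein Mt2 (-2.22) and the polyamine enzyme gene Odc1 (-1.77) also had lower effects. All these had their highest dendritic cell level in control replicate 2, with its 5 cells. Fth1, the ferritin heavy chain, fell in both classes but further in dendritic cells, from 6739 and 9144 to 575, 484 and 758 CPM against 11061 and 9063 to 1928, 1357 and 2210 CPM in macrophages (-1.05, edgeR adjusted p = 0.0472).

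**Figure D5:**
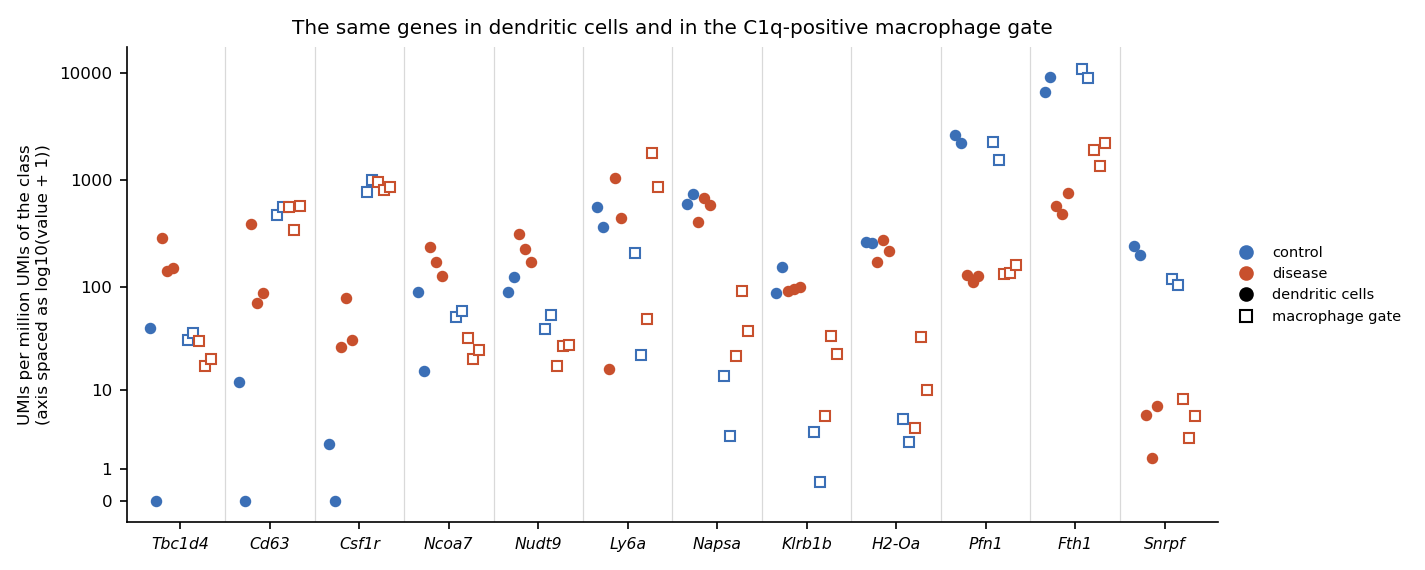
Level of 12 genes in dendritic cells (filled circles) and in the C1q-positive macrophage gate (open squares) of each library, in CPM on an axis spaced as log10(value + 1); blue is control and red disease. Tbc1d4, Cd63 and Csf1r are higher in disease in dendritic cells and overlap or are lower in macrophages, Napsa is higher in all 3 disease macrophage samples and H2-Oa in 2, and Pfn1 and Snrpf are lower in disease in both classes.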

How the data were processed

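The authors deposited 1 matrix of raw UMI counts per library (genes by cell barcodes), which per the file headers is output of Cell Ranger version 3.1.0. Per the submitters' processing notes, Cell Ranger 3 and Seurat 3 were used and mm10 was among the builds; the annotation is not given in the sources used here. The deposited counts were used unscaled. Barcodes with at most 10% mitochondrial UMIs were kept and the marker rule was applied to each. Counts were summed per library and cell class. Genotypes were compared with edgeR 4.0.16 in R 4.3.3 (quasi-likelihood F test after filterByExpr, TMM size factors, Benjamini-Hochberg adjustment, threshold 0.05), with DESeq2 1.42.0 as an alternative. Shares were compared by two-sided exact permutation tests over libraries. Printed CPM are plain UMIs per 1000000 UMIs of the class. Doublets were called with Scrublet (scanpy 1.11.5).

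Beyond the gene lists, the text names the 10 largest rises and falls past the threshold whose groups do not overlap and whose mean log2 CPM is 5 or more, or, against other cells, leading genes by mean fold; Ifi30, Clec7a and Mx2 were not analysed here. The members and lists were chosen with earlier results of these data known. Separate fits of cDC1 and of other dendritic cells were not run, because control replicate 2 held 3 and 2 such cells, under the minimum of 10. The labels give no batch. Tested on simulated data, the dendritic cell fit (3683 genes) recovered 63.9% of 4-fold and 92.1% of 8-fold changes, with 4 false calls of 127, and the fit against macrophages (4282 genes) 28.3 and 74.0%, with 3 of 105. The simulated macrophage counts were drawn separately from those of dendritic cells, with the same mean level in every library and a fixed dispersion. Real macrophage levels differed between libraries, so these last rates cannot be carried over to the calls against macrophages. Counting intervals and limits cover counting error only. The alternatives are in the closing section.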

Additional observations from a re-analysis of the deposited data

Results flagged for a closer look

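The genotype effect differed between dendritic cells and the macrophage gate, by the test of the difference itself (edgeR, adjusted p under 0.05), for 18 genes named above. A further 4 called genes, Fscn1, Il4i1, Csf1r and Anxa3, had 3 or fewer control UMIs in dendritic cells, where a fall could not have been seen, and are left out. The log2 difference (effect in dendritic cells minus that in macrophages) was positive for Cd63 (3.88), Tbc1d4 (3.11), Glipr2 (3.07), Ncoa7 (2.48), Nudt9 (2.15) and Txndc17 (1.84). Cd63 was very low in control dendritic cells, which left it little room for a fall. The log2 difference was negative for Ly6a (-3.22), Klrb1b (-3.01), Clec4b1 (-2.53), Napsa (-2.45), Slc15a3 (-2.30), Mt2 (-2.22), Cd209a (-2.21), H2-Oa (-1.86), Cxcl9 (-1.82), Odc1 (-1.77), Il1b (-1.53) and Fth1 (-1.05). Only Tbc1d4 and Ly6a of the 18 were called in all 9 alternatives. The call was lost in 6 of them for H2-Oa and Fth1 and in 5 for Txndc17. For Glipr2, Cd209a, Cxcl9, Odc1 and Il1b it was lost in 4, and for the remaining genes in 1 to 3. The dendritic-to-macrophage ratios of Cxcl9 and Il1b overlapped between groups.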

How the results depend on the processing

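Of the 110 genes called in dendritic cells, the count moved to 216 with every gene of at least 1 count (45 higher and 171 lower), to 64 with members of C1q sum 0, to 48 with 5 cells drawn from each library and, as an alternative chosen after seeing the data, to 67 without cells carrying monocyte markers. Leaving out 1 library at a time gave 3 to 109 genes, the lowest without control replicate 1 (then 38 without control replicate 2, 27 without disease replicate 4 and 28 without disease replicate 5), and 6 to 41 against macrophages, where 34 had been called (6 without control replicate 2 and 19 without disease replicate 5). With DESeq2 11 genes were higher and 84 lower, and with a C1q limit of 4, chosen after seeing the data, 0 were higher and 125 lower. The Ccr7 difference from macrophages, not called, went from 2.15 to -0.43 without control replicate 1 (4.65 without disease replicate 4), where the median of all genes moved from 0.14 to 0.74, and the Plac8 fold in dendritic cells, also not called, from 1.51 to -0.33 with 5 cells per library. No share difference changed sign in 75 combinations of share and setting, and the lowest adjusted p of those tested was 0.375. Leaving out 1 library gave differences of 0.103 to 0.284 points of all cells, 0.199 to 0.748 of Ptprc-positive cells, 0.762 to 20.8 for cDC1, 10.4 to 20.4 for mature, -16.4 to -8.36 for cDC2-marker, -40.0 to 0 for plasmacytoid and 6.02 to 22.02 for cycling cells. The cause of these shifts was not tested. No paired analysis was possible because control and disease libraries share no replicate numbers. The 5 dendritic cells of control replicate 2 limit every comparison of dendritic cells between the groups.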

Other observations

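Cst3, the cystatin gene that is among the most abundant dendritic cell transcripts, was at 30973 and 16014 CPM in control and 34060, 5148 and 37521 CPM in disease dendritic cells. Disease replicate 4 was low in every class: the macrophage gate had 4072 and 5093 against 5850, 861 and 4164 CPM, and all remaining cells 2549 and 2290 against 3138, 604 and 2744 CPM. In control replicate 2 a single cell held 72.5% of the dendritic cells' Cst3 UMIs. Ighm, the immunoglobulin heavy chain of B cells, was present in 11 of 25 and 3 of 5 control and in 8 of 13, 32 of 53 and 16 of 28 disease dendritic cells, at 49.6 and 45.8 against 106, 114 and 73.6 CPM, each disease library being higher. The macrophage gate carried Ighm at 223 and 285 against 237, 194 and 199 CPM, without that order. The Xcr1 or Clec9a UMIs in the macrophage gate included cells with both genes, 6 and 0 in control and 2, 75 and 12 in disease, and in disease replicate 4 the cells with either had a median of 10751 UMIs.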
